A study of Solanum lycopersicum with 8 samples.

Results

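Leaf transcripts of tomato plants that had been sprayed with water only were compared between 2 harvests, 12 h and 6 h after the spray. The samples were chosen by their labels: 4 of the 8 arrays in the series carried RNA of water-sprayed leaves, 2 from each harvest. The plants were of the cultivar Summer sweet, grown under a 12 h photoperiod, and were sprayed until run-off with plain distilled water as the control of the study. The other 4 arrays carried RNA of leaves sprayed with neutralized phosphorous acid (NPA), a solution of phosphorous acid and potassium hydroxide, and harvested at the same 2 times. Each array held RNA pooled from 5 plants, so differences between single plants were not measured. The complete experiment was run in 2 repeats, each of which gave 1 array per group. The labels give neither the age of the plants nor the clock time of spraying or harvest. Time since the spray, hour of day and the light or dark state of the plants at harvest therefore cannot be told apart.

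Leaves follow the daily cycle in the transcripts of many genes. Light and an internal clock set the daily course of transcripts for light-harvesting proteins, which bind chlorophyll and pass light energy to the photosystems, and of transcripts for pigment, sugar and hormone metabolism. The clock itself runs on transcription factors that peak at different hours and repress each other, among them the evening-expressed factors that were first described in Arabidopsis.

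The values are log2 expression values as deposited, 1 per probe set and array, and 1 unit is a doubling on the linear scale. Changes are differences of group means, 12 h minus 6 h, with a standard error (SE) from limma fitted over all 8 arrays, n = 2 arrays per group. A probe set was said to rise or fall when its p-value, adjusted by Benjamini-Hochberg over 8404 probe sets, was under 0.05. Of these probe sets 1867 passed in water leaves (22.2%), 981 upward (11.7%) and 886 downward (10.5%). Before adjustment 3152 had p under 0.05, where chance gives 420. With the repeat as a block 3144 passed (37.4%), 1697 upward (20.2%) and 1447 downward (17.2%), among them all 1867 in the same direction. All 1867 had the same direction in both repeats, and in all of them the 6 h and 12 h arrays did not overlap, as was the case for 66.6% of all probe sets.

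Large falls were more frequent than large rises. Of the probe sets that passed, 109 fell and 36 rose by at least 2 on the log2 scale, that is at least 4-fold. At a limit of 1, or 2-fold, 372 fell (4.43%) and 330 rose (3.93%), 702 in all (8.35%). With arrays centred on their medians the balance turned, with 863 rises and 981 falls of 1844. The median change was 0.82 among the risen and -0.87 among the fallen probe sets, and 0.02 over all. Array medians lay between 8.77 and 8.83, so the arrays stood on nearly the same scale. Calls were spread over the whole range of expression: in 5 equal bins of the probe sets by mean level, from 8.27% to 13.9% rose and from 9.88% to 12.3% fell. The number of arrays limits these counts. Without any 1 of the water arrays the total was between 356 and 818, lowest without the 6 h array of repeat 1 (356) and then without the 6 h array of repeat 2 (639), the 12 h array of repeat 2 (689) and the 12 h array of repeat 1 (818).

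**Figure D1:**
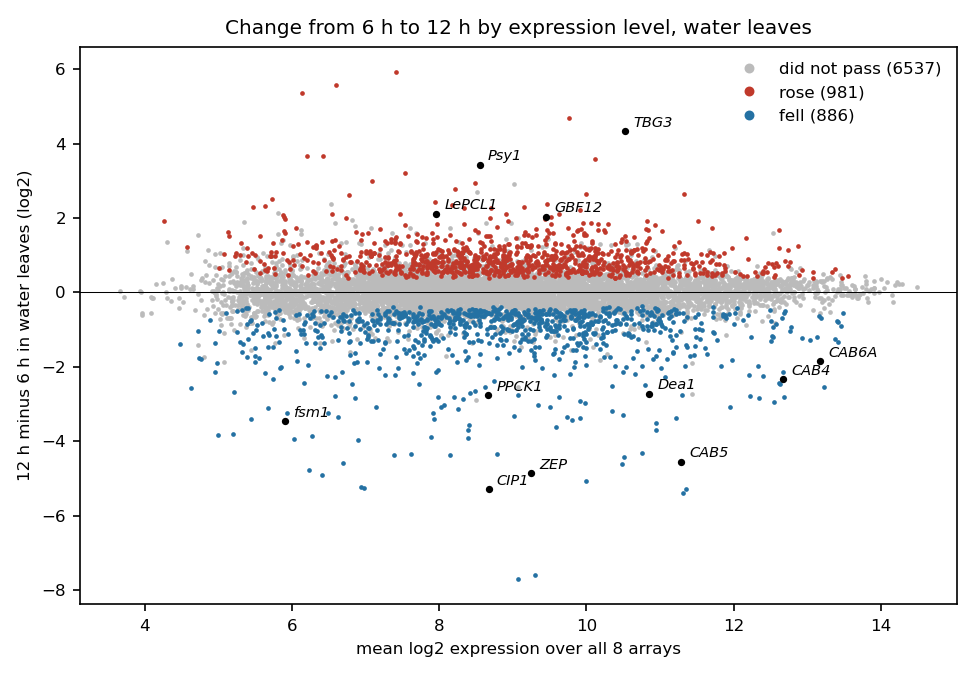
Change from 6 h to 12 h in water leaves (log2) against mean log2 expression over all 8 arrays, 1 point per probe set, for 8404 probe sets. The 981 rises and 886 falls run along the whole level axis, and below -2 lie more points than above 2 (109 falls and 36 rises).

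Platform annotation gave a gene symbol to 753 probe sets, which stand for 688 genes. Of these genes 147 passed (21.4%), 62 upward (9.01%) and 85 downward (12.4%). The counts of gene groups below are to be read against these shares. With the repeat as a block the share was 36.8% (253 of 688), 17.2% upward and 19.6% downward. Where a gene had several probe sets, the one with the highest mean level stands for it.

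Transcripts of the light-harvesting antenna fell. CAB4, CAB5 and CAB6A, which encode chlorophyll a/b-binding proteins of the light-harvesting antenna, all fell between the harvests. CAB5 measured 13.77 and 13.82 in the 6 h arrays and 8.94 and 9.55 in the 12 h arrays. The change of -4.55 (SE 0.27, adjusted p = 0.000462) is a 23.4-fold difference. CAB4 was at 13.91 and 13.89 at 6 h and at 11.30 and 11.86 at 12 h. The 6 h arrays of both genes lay close together and far above both 12 h arrays. CAB4 fell by 2.32 (SE 0.25, 4.99-fold, adjusted p = 0.00291). CAB6A stood at 14.13 and 14.17 and then at 12.40 and 12.20, a change of -1.85 (SE 0.15, 3.61-fold, adjusted p = 0.00132). All 3 calls held without any 1 of the 8 arrays. In a pooled leaf sample, fewer cells of a type and less RNA per cell cannot be told apart. Genes for chlorophyll a/b-binding proteins form families of near-identical copies, and their probe sets may read more than 1 copy.

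The other photosynthesis genes measured did not pass, though PSBR passed with an intensity trend (adjusted p = 0.0273). They encode subunits around the photosystems and the electron carrier between them: PSBO, PSBP and PsbQ of the oxygen-evolving complex, PSBR of photosystem II, PETE (plastocyanin) and LOC543978, whose listed synonym is psaD, a subunit of photosystem I. Their changes lay between -0.08 for PETE and 0.20 for PSBR, with PSBO at -0.02, PSBP at -0.05, PsbQ at 0.08 and LOC543978 at 0.01. Thus 3 of 9 photosynthesis genes fell (33.3%), none rose, and the median change was -0.05.

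Of the marker genes chosen for leaf and other tissues, 6 were measured. The CAB transcripts, the leaf markers among the named genes, measured between 13.77 and 14.17 at 6 h. MTS1, a terpene synthase of glandular trichomes, measured 3.92 and 3.97 at 6 h and 3.30 and 3.46 at 12 h (change -0.56, adjusted p = 0.296). SSTLE1, another terpene synthase, changed by 0.06. The flower marker TDR6, a MADS-box gene, was at 7.48 and 7.47 and then at 8.65 and 8.17 (change 0.93, adjusted p = 0.0883), and with only the 4 water arrays it passed (adjusted p = 0.039), as did MTS1 (0.0486). The part of other cell types in the results was not tested. No detection calls were used, so low values do not show that a transcript was absent.

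Among pigment genes, Psy1 of the first carotenoid step, by 1 of its 2 probe sets, and ZEP of a later step moved in opposite directions. Carotenoids are made in the plastid from isoprenoid units: phytoene synthase (Psy1, PSY2) makes the first carotenoid, phytoene desaturase (PDS) and ZDS desaturate it, cyclases (LCY1 and CRTL-E-1) close the rings, and zeaxanthin epoxidase (ZEP) makes the violaxanthin side of the xanthophyll cycle. ZEP was at 12.09 and 11.41 at 6 h and at 6.99 and 6.80 at 12 h. It fell by 4.85 (SE 0.28, 28.9-fold, adjusted p = 0.00039). Psy1 was at 7.20 and 6.32 at 6 h and at 9.98 and 10.43 at 12 h, with the arrays of each harvest well apart. It rose by 3.44 (SE 0.40, 10.9-fold, adjusted p = 0.00374), by 2.78 in repeat 1 and 4.11 in repeat 2. The second Psy1 probe set did not pass, with 5.87 and 6.07 at 6 h and 5.89 and 6.19 at 12 h (change 0.07, adjusted p = 0.793), so the rise of Psy1 rests on 1 of 2 probe sets. PSY2, the other phytoene synthase gene, changed by -0.14.

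Of the 19 genes of chlorophyll, carotenoid and isoprenoid synthesis, 6 fell, 1 rose and 12 did not pass (36.8% called, median change -0.35). DXS, which starts the plastid isoprenoid pathway, was at 11.82 and 11.76 and then at 10.46 and 10.76, a change of -1.18 (SE 0.18, adjusted p = 0.00851). ISPE, a kinase later in that pathway, fell by 1.26 (SE 0.24, adjusted p = 0.0145), from 9.81 and 9.83 to 8.83 and 8.29. FPPS1, farnesyl diphosphate synthase, stood at 10.60 and 10.41 and then at 9.12 and 9.05, a change of -1.42 (SE 0.14, adjusted p = 0.0022). For each of these genes both 12 h arrays lay below both 6 h arrays, as for every probe set that fell. PDS fell by 0.73 (SE 0.13, adjusted p = 0.0115). CRTL-E-1, lycopene epsilon cyclase, outside the naming rule, fell by 0.72 (SE 0.12). HDS stood at -0.35 and DXR, outside the rule, at -0.07. With the block 2 rose and 7 fell, the second rise being HMGR, outside the rule, at 0.52 (adjusted p = 0.00813). GSA-AT, which supplies the precursor of chlorophyll, stood at -0.37 and passed with the block (adjusted p = 0.0375). CrtR-b1, a carotene hydroxylase outside the rule, stood at 1.59 with 8.38 and 7.14 at 6 h and 9.11 and 9.60 at 12 h (adjusted p = 0.0627). Without the 6 h array of repeat 1 the count of 7 became 3, without the 6 h array or the 12 h array of repeat 2 it became 4, while ZEP, Psy1 and FPPS1 held without any 1 array.

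**Figure D2:**
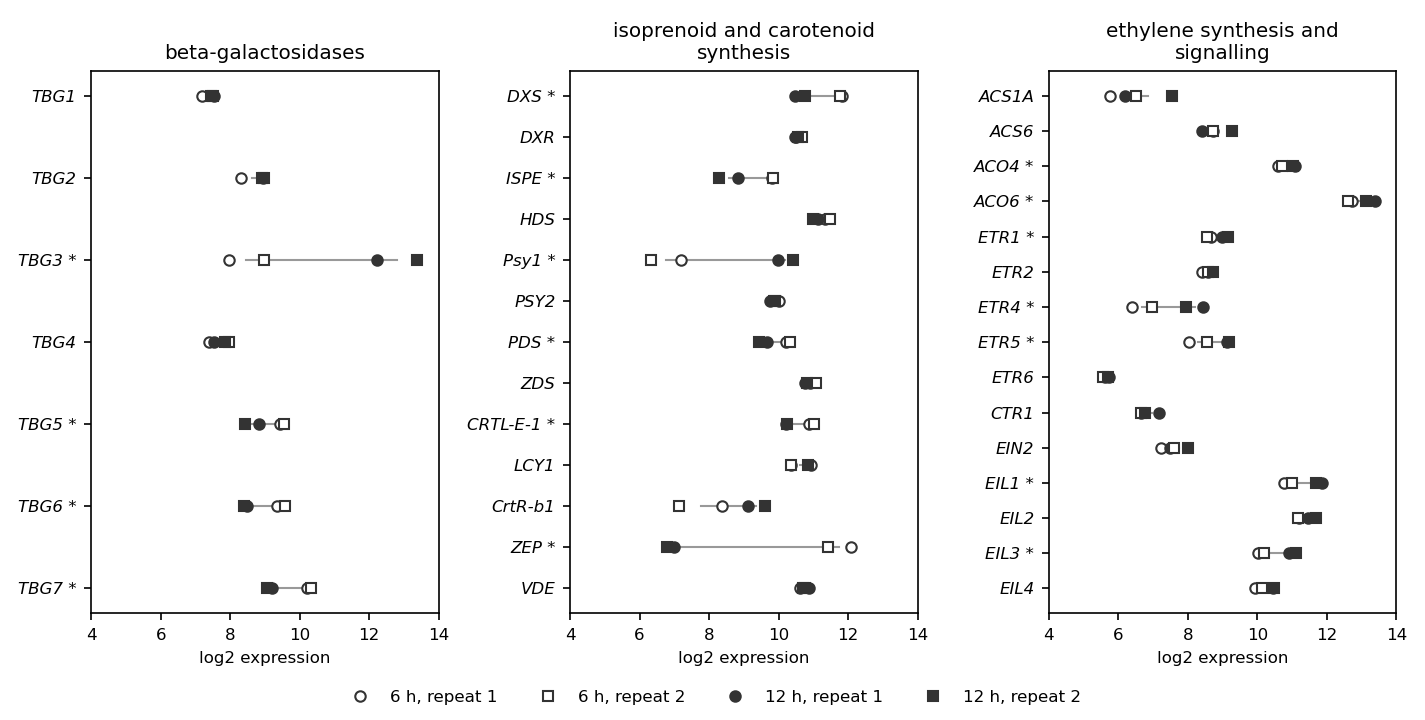
Log2 expression in the 4 water arrays for beta-galactosidases, genes of isoprenoid and carotenoid synthesis, and genes of ethylene synthesis and signalling. Open symbols are 6 h and filled symbols 12 h, circles repeat 1 and squares repeat 2, grey lines join the group means, and an asterisk marks genes that passed. TBG3 and Psy1 moved right by 4.34 and 3.44 and ZEP left by 4.85, while genes beside them such as TBG4 (0.02) and PSY2 (-0.14) did not pass.

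Genes of light signalling and of the clock split as well. Light is read by phytochromes (PHYA) and cryptochromes (CRY1A, Cry1b, CRY2), and COP1, a ubiquitin ligase, removes factors that promote light responses in darkness. LePCL1 carries the name of PHYTOCLOCK1 of Arabidopsis, a clock factor of the evening, and GBF12 that of the G-box binding factors. GBF12 measured 8.16 and 8.85 at 6 h and 10.48 and 10.62 at 12 h, a rise of 2.04 (SE 0.27, 4.13-fold, adjusted p = 0.00533). LePCL1 measured 6.44 and 7.60 and then 9.15 and 9.14, a rise of 2.12 (SE 0.41, 4.36-fold, adjusted p = 0.0164). In both genes the 6 h array of repeat 1 was the lowest, and the 12 h arrays lay close together.

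COP1 was at 8.16 and 8.66 at 6 h and at 9.55 and 9.72 at 12 h and rose by 1.23 (SE 0.32, adjusted p = 0.0387). Cry1b rose by 0.60 (SE 0.13, adjusted p = 0.0238), while CRY1A stood at -0.07 and CRY2 at 0.04. PHYA, outside the naming rule, stood at -0.55 and passed with the block (adjusted p = 0.0295). CO1, named after CONSTANS of the day-length pathway, fell by 1.03 (SE 0.22, adjusted p = 0.0225), from 5.54 and 5.19 to 4.15 and 4.52. HO2, a heme oxygenase of the kind that makes the phytochrome chromophore, fell by 0.76 (SE 0.15, adjusted p = 0.0165). In all 4 of 16 genes rose, 2 fell and 10 did not pass (37.5% called, median -0.01). GBF12 held without any 1 array. The other 5 lost the call without 1 array or more, among them LePCL1 without the 12 h array of repeat 2 (adjusted p = 0.0713), and the count of 6 became 1 without either 12 h array or the 6 h array of repeat 1 and 2 without the 6 h array of repeat 2.

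The largest rises of all named genes beside Psy1, LePCL1 and GBF12 came from several functions. TBG3, a beta-galactosidase of the cell wall, was at 7.96 and 8.97 at 6 h and at 12.22 and 13.38 at 12 h. It rose by 4.34 (SE 0.55, 20.2-fold, adjusted p = 0.00487). The repeats of TBG3 stood about 1 unit apart at both harvests, and the change was 4.26 in repeat 1 and 4.41 in repeat 2. tft10, a 14-3-3 protein, rose by 1.64 (SE 0.20), from 8.88 and 9.09 to 10.79 and 10.47. eIF-5A1, a translation factor, rose by 1.64 (SE 0.21), from 10.46 and 10.21 to 12.15 and 11.81. WRKY2, a transcription factor, rose by 1.59 (SE 0.25), from 8.35 and 9.07 to 10.25 and 10.34. LOC543605, listed with the synonym HGO, rose by 1.55, LOC778326 by 1.68, LOC543604 by 1.26 and LOC543857 by 1.24. Adjusted p lay between 0.00274 and 0.00891 for the first 6 of these 8, counted with TBG3, and was 0.0158 for LOC543604 and 0.0397 for LOC543857. LOC543604 lost the call without any of 3 water arrays and LOC543857 without any of the 4, with adjusted p up to 0.0984 and 0.187. LOC543857 also lost it with quantile normalization (adjusted p = 0.0564).

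Beside ZEP and the CAB genes, CIP1 led the falls. It was at 11.73 and 10.98 at 6 h and at 5.86 and 6.29 at 12 h, a change of -5.28 (SE 0.29, 38.9-fold, adjusted p = 0.000323). The annotation used here gives CIP1 no function. Dea1, a gene described in tomato as having a daily rhythm, was at 12.08 and 11.98 and then at 8.94 and 9.68, a change of -2.72 (SE 0.31, 6.59-fold, adjusted p = 0.00338). ST3 fell by 1.97 (SE 0.16, adjusted p = 0.00146), from 11.32 and 11.14 to 9.29 and 9.22. yfe37 fell by 1.97 too (SE 0.28, adjusted p = 0.00683), from 12.35 and 12.25 to 10.16 and 10.49. In all of these genes the 12 h arrays lay at least 1 unit below the 6 h arrays. Of the 15 largest rises 8 held without any 1 of the 8 arrays, and of the 15 largest falls 10. The exceptions among the falls reached their highest adjusted p without the 6 h array of repeat 1 for fsm1 (0.0503), yfe37 (0.0556), GA20OX1 (0.107) and ADC (0.0947), and without the 6 h array of repeat 2 for LAPA1 (0.11).

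**Figure D3:**
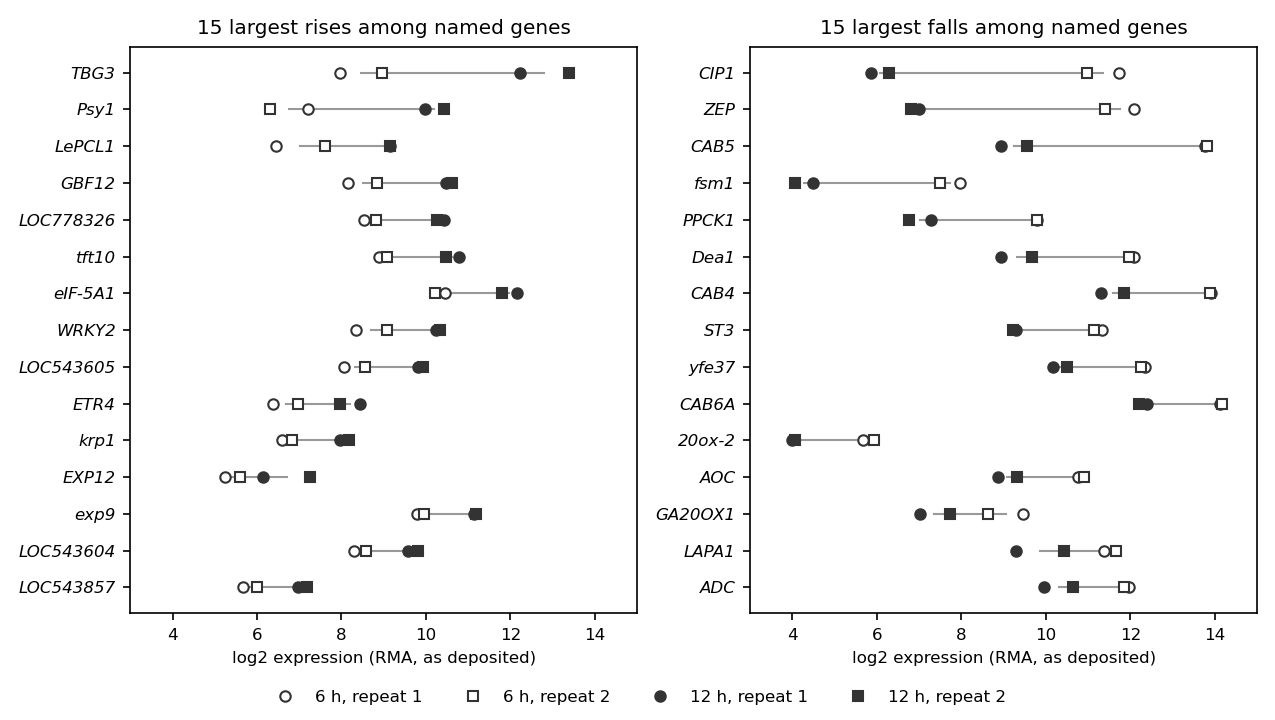
Log2 expression in the 4 water arrays for the 15 named genes with the largest rises and the 15 with the largest falls. Open symbols are 6 h and filled symbols 12 h, circles repeat 1 and squares repeat 2, and grey lines join the group means. That the arrays of the 2 harvests do not overlap was a condition for choosing these 30 genes. It holds for 66.6% of all probe sets. The genes run from TBG3 (group means 8.46 at 6 h and 12.8 at 12 h) to CIP1 (11.36 at 6 h and 6.08 at 12 h).

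Carbon metabolism held more falls than rises. Of 35 genes for sugar, starch and organic acid metabolism, 9 fell, 4 rose and 22 did not pass (37.1% called, median -0.33). PPCK1 and PPCK2 encode kinases that activate phosphoenolpyruvate carboxylase, the enzyme that feeds carbon into organic acids. PPCK1 was at 9.79 and 9.80 at 6 h and at 7.28 and 6.77 at 12 h, a change of -2.77 (SE 0.26, 6.82-fold, adjusted p = 0.00205). PPCK2 fell by 1.48 (SE 0.18, adjusted p = 0.004), from 6.66 and 6.36 to 4.98 and 5.08. Both kinase genes thus moved the same way, with no overlap between harvests, as for every probe set that passed. hxk1, a hexokinase, fell by 1.47 (SE 0.17, adjusted p = 0.00367), from 10.42 and 10.48 to 9.15 and 8.81. AgpL1, a large subunit of the starch enzyme ADP-glucose pyrophosphorylase, fell by 1.17 (SE 0.18, adjusted p = 0.00862). LIN8, of the invertases, which split sucrose, fell by 0.97 (SE 0.20, adjusted p = 0.0209).

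SNF1, a protein kinase of the energy response, rose by 1.02 (SE 0.15, adjusted p = 0.00692), from 8.72 and 8.75 to 9.70 and 9.81. Outside the naming rule, the fructokinases FRK2 and FRK3 fell by 0.93 and 0.97, AGPL3 by 0.86 and the enolase PGH1 by 0.42. Also outside it, gMDH and chMDH, malate dehydrogenases of the glyoxysome and the chloroplast, rose by 0.77 and 0.54 and the acid invertase AI by 0.76. The mitochondrial mMDH1 stood at -0.04. LOC544276, listed with the synonym ICL, stood at -0.44 and passed with the block (adjusted p = 0.0211). With the block 14 fell and 6 rose. Without the 6 h array of repeat 1 the count of 13 became 4, without the 6 h and 12 h arrays of repeat 2 it became 8 and 6, and PPCK1, PPCK2 and hxk1 held without any 1 array.

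In nitrogen and amino acid metabolism 4 of 27 genes fell, 3 rose and 20 did not pass (25.9% called, median -0.28). The falls were larger than the rises. ADC, arginine decarboxylase of polyamine synthesis, was at 11.97 and 11.85 and then at 9.95 and 10.65, a change of -1.61 (SE 0.31, adjusted p = 0.0165). GABA-TP2, a transaminase that breaks down gamma-aminobutyrate, was at 12.14 and 12.16 and then at 10.73 and 10.70, a change of -1.44 (SE 0.12, adjusted p = 0.00146). The arrays of each harvest nearly coincided for this gene. ProT3, a transporter of proline, fell by 1.57 (SE 0.27, adjusted p = 0.0113). yfe37, described above, was counted here only through its listed synonym GAD3. URED, a urease accessory protein, rose by 0.99 (SE 0.22, adjusted p = 0.0249) and PRO2, of proline synthesis, by 0.46 (SE 0.11, adjusted p = 0.0311, and 0.0641 with only the water arrays). SAM1, outside the rule, rose by 0.46. GS2, a glutamine synthetase, stood at 0.30 and passed with the block (adjusted p = 0.0437), and SAHH stood at 0.26. With the block 9 fell and 4 rose. The count of 7 shrank without either water 6 h array or the water 12 h array of repeat 1, and grew without the water 12 h array of repeat 2.

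Ethylene genes that passed all rose. Ethylene is made by ACC synthases and ACC oxidases (ACO), bound by receptors (ETR) and answered through the EIN3-like factors (EIL). ETR4, a receptor, was at 6.38 and 6.98 at 6 h and at 8.45 and 7.96 at 12 h, a rise of 1.53 (SE 0.31, 2.88-fold, adjusted p = 0.0181). ETR5 rose by 0.88 (SE 0.21, adjusted p = 0.0276), from 8.02 and 8.54 to 9.14 and 9.18. ETR1 rose by 0.47 (SE 0.12, adjusted p = 0.0351), while ETR2 stood at 0.16 and ETR6 at 0.02, both outside the naming rule. Among the factors, EIL3 rose by 0.90 (SE 0.19, adjusted p = 0.0224) and EIL1 by 0.88 (SE 0.19, adjusted p = 0.022). EIL2 (0.38) and EIL4 (0.45) passed only with the block (adjusted p = 0.0402 and 0.0495). On the synthesis side ACO6 rose by 0.60 (SE 0.13, adjusted p = 0.0249), and its other probe sets stood at 0.51 (adjusted p = 0.037) and 0.23 (0.173). ACO4, outside the rule, rose by 0.40 (SE 0.11, adjusted p = 0.0444).

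Of 19 ethylene genes 7 rose, none fell and 12 did not pass (36.8% called). Above 0 stood 17 of the 19, with a median of 0.38, against 332 of all 688 named genes, with a median of -0.03. The pattern was weaker in NPA leaves, where 1 of the 19 rose and 1 fell. There the median was 0.17, and 11 of the 19 had the same sign as in water leaves. Each of the 7 lost the call without 1 array or more. The count was 0 without the 6 h array of repeat 1 or the 12 h array of repeat 1, 1 without the 12 h array of repeat 2, 2 without the 6 h array of repeat 2 and 5 without any 1 of the NPA arrays. ETR1 also lost the call with arrays centred on their medians (adjusted p = 0.0536), and ETR1 (0.0803) and ACO6 (0.0562) with only the 4 water arrays.

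The ERF transcription factors, many of which respond to ethylene or stress, stood mostly above 0 and few passed. PTI4 was at 10.36 and 10.53 and then at 11.59 and 11.43, a rise of 1.07 (SE 0.14, adjusted p = 0.00554). JERF1 was at 11.33 in both 6 h arrays and at 12.38 and 12.01 at 12 h, a rise of 0.86 (SE 0.17, adjusted p = 0.0164). Of 14 genes 2 rose (14.3%), 12 did not pass, and 12 stood above 0, with a median of 0.72 against -0.03 over all named genes. In NPA leaves the median of these 14 genes was 0.04, 1 rose, none fell, and 10 had the same sign as in water leaves. ERF3 stood at 0.98 without passing in either fit, and ERF4 at 0.53, passing with the block (adjusted p = 0.0464). With the block 6 rose and 1 fell. Without the 6 h array of repeat 1 none passed, PTI4 having adjusted p = 0.0506 and JERF1 0.0905, and 1 passed without the 6 h array of repeat 2 or the 12 h array of repeat 1.

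Jasmonate and wound genes that passed all fell. Jasmonate, the wound hormone, is made from lipid peroxides through allene oxide synthase (AOS), allene oxide cyclase (AOC) and OPR enzymes, and HPL, hydroperoxide lyase, turns the same peroxides into leaf volatiles. AOC was at 10.76 and 10.90 at 6 h and at 8.86 and 9.31 at 12 h, a change of -1.74 (SE 0.18, 3.35-fold, adjusted p = 0.00274). HPL was at 12.57 and 12.40 and then at 11.44 and 10.95, a change of -1.29 (SE 0.19, adjusted p = 0.00716). LAPA1, an aminopeptidase that wounding induces, fell by 1.65 (SE 0.36, adjusted p = 0.0231), from 11.37 and 11.67 to 9.30 and 10.44. The 12 h arrays of LAPA1 lay far apart, and with only the 4 water arrays it did not pass (adjusted p = 0.0518). opr2 fell by 1.16 (SE 0.31, adjusted p = 0.0426), and with only the water arrays had adjusted p = 0.0611.

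Of these 19 genes 4 fell, none rose and 15 did not pass (21.1% called, median -0.45), which is near the 21.4% called among all named genes. LAPA2, the paralogue of LAPA1, stood at 0.17 and OPR1 at 0.33, the latter passing with the block (adjusted p = 0.0431). AOS, outside the rule, stood at -0.45. With the block 6 fell and 2 rose. The count of 4 shrank without either water 6 h array and grew without either water 12 h array. AOC kept its call in each case.

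Of 3 gibberellin synthesis genes 2 fell, and a repressor of the response rose. GA20OX1 and 20ox-2 encode gibberellin 20-oxidases, which make the precursors of active gibberellins. 20ox-2 was at 5.67 and 5.94 at 6 h and at 3.98 and 4.06 at 12 h, a change of -1.79 (SE 0.16, 3.45-fold, adjusted p = 0.00173). GA20OX1 was at 9.46 and 8.63 and then at 7.01 and 7.72, a change of -1.68 (SE 0.35, adjusted p = 0.0211). SPY, a glycosyltransferase that represses gibberellin signalling, rose by 0.65 (SE 0.14, adjusted p = 0.0212), from 9.62 and 9.56 to 10.28 and 10.20. 3OH-2, the third synthesis gene, outside the naming rule, stood at -0.97 (adjusted p = 0.0926) and passed with the block (0.0468). GAI, the DELLA protein that gibberellin removes, stood at 0.21, and CYP85A1, of brassinosteroid synthesis, at 0.70, passing with the block (adjusted p = 0.0251). Of the 6 genes of this group 2 fell, 1 rose and 3 did not pass, and with the block 3 fell and 2 rose. 20ox-2 held without any 1 array, and the count of 3 became 1 without the 6 h or the 12 h array of repeat 1 and 2 without the 12 h array of repeat 2.

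Abscisic acid and auxin genes had 1 call each of 10. AO1, an aldehyde oxidase of the family that finishes abscisic acid synthesis, fell by 0.66 (SE 0.16, adjusted p = 0.0312). The auxin response repressor IAA7 fell by 0.84 (SE 0.23, adjusted p = 0.0451), from 9.30 and 8.69 to 8.09 and 8.22. LEA14 stood at 0.23, TSW12 at -0.60, ARPI at -0.20 and LOC543517, listed as LeARF1, at -0.20. With the block 3 abscisic acid genes fell, and 3 auxin genes rose and 1 fell. Without any 1 of the 4 water arrays AO1 lost its call (adjusted p up to 0.142), and without either NPA 6 h array 2 abscisic acid genes passed. IAA7 lost its call without any array other than the 6 h array of repeat 2 (up to 0.195) and with only the water arrays (0.0702).

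Of 42 cell wall genes 3 rose, 6 fell and 33 did not pass (21.4% called, median -0.01), the same share as among all named genes. With the block 5 rose and 7 fell, the rises gained being TPRP-F1 (1.57, adjusted p = 0.0327) and CELLULASE (1.08, adjusted p = 0.0225), both outside the naming rule. Next to the rise of TBG3, the beta-galactosidase TBG7 was at 10.22 and 10.32 and then at 9.20 and 9.06, a change of -1.14 (SE 0.17, adjusted p = 0.00705). TBG5 and TBG6, outside the naming rule, fell by 0.86 and 1.02, and TBG1, TBG2 and TBG4 stood between 0.02 and 0.29. Among expansins, which loosen the wall, exp9 rose by 1.29 (SE 0.30, adjusted p = 0.0273), from 9.80 and 9.95 to 11.13 and 11.19. EXP12 rose by 1.29 as well (SE 0.36, adjusted p = 0.0455), from 5.24 and 5.60 to 6.15 and 7.26. EXPA4, outside the rule, fell by 0.79 (SE 0.17).

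XTH1, a xyloglucan endotransglucosylase that cuts and rejoins wall polymers, was at 11.69 and 11.37 at 6 h and at 10.12 and 9.77 at 12 h, a change of -1.58 (SE 0.22, adjusted p = 0.00594). XTH16 stood at -0.07 and TLRP at 0.28. AGP-1, an arabinogalactan protein, fell by 1.40 (SE 0.35, adjusted p = 0.0342). EXP12 lost its call with median centring (adjusted p = 0.0532), with only the water arrays (0.0861) and without any array other than the 12 h array of repeat 1 (up to 0.205). The count of 9 was 1, TBG3, without the 6 h array of repeat 1, 4 without the 6 h array of repeat 2, and 5 and 3 without the 12 h arrays of repeats 1 and 2.

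In the cell cycle group, inhibitors rose and a replication factor fell. krp1 and krp2, kip-related inhibitors of cyclin-dependent kinases, rose by 1.37 (SE 0.22, adjusted p = 0.00976) and 1.05 (SE 0.13, adjusted p = 0.00433). krp1 was at 6.59 and 6.82 and then at 7.97 and 8.18, and krp2 at 5.80 and 5.65 and then at 6.79 and 6.76. PCNA, the sliding clamp of DNA replication, was at 8.76 and 8.5 and then at 7.49 and 7.63, a change of -1.07 (SE 0.21, adjusted p = 0.0176). fsm1, a small MYB-like protein linked to cell expansion in tomato fruit, was at 7.96 and 7.5 and then at 4.48 and 4.05, a change of -3.46 (SE 0.46, 11.0-fold, adjusted p = 0.00566). The kinase gene cdc2A-2 rose by 0.87 (SE 0.15, adjusted p = 0.0123).

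Of these 17 genes 3 rose, 2 fell and 12 did not pass (29.4% called, median 0.22). The histone gene H1 stood at 0.30 and the tubulin gene TUB at -0.58, passing with the block (adjusted p = 0.0284). Cyclins, outside the rule, stood between -0.16 for CycA3 and 0.57 for CycA2. krp2 held without any 1 array, and the count of 5 was 1 without the 6 h array of repeat 1, 2 without the 12 h array of repeat 2 and 3 without the 6 h array of repeat 2.

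The remaining groups held few calls. Of 16 defence proteins 2 fell, the subtilase P69A by 1.1 (SE 0.18, adjusted p = 0.0102) and GLUII by 0.88 (SE 0.14, adjusted p = 0.00975), and none rose (12.5% called, median 0.13). Of the 16, however, 11 stood above 0 and 5 below. LOC543878, listed as PR5, P69B and NP24-I, all outside the naming rule, stood at 1.28, 1.25 and 1.07 without passing. Their SEs were large (0.92, 0.74 and 0.68) and take in the spread of the NPA arrays as well. The chitinases CHI3 and CHI17 stood at -0.25 and -0.20. Of 7 heat shock and chaperone genes, 6 stood below 0 and Hsp90-1 fell by 0.91 (SE 0.16, adjusted p = 0.0117), from 11.11 and 11.12 to 10.08 and 10.33. HSC80, another Hsp90 gene, stood at 0.32 and passed with the block (adjusted p = 0.0458), and CPN21 at -0.20. Of 29 redox genes 3 fell (10.3%), the ascorbate peroxidases APX1 by 0.78 (adjusted p = 0.0439) and APX2 by 0.55 (0.0273), and the glutathione peroxidase GPXle-2 by 0.68 (0.0485). The second probe set of APX2 stood at -0.49 and passed only with the block (adjusted p = 0.0156). The catalase gene cat1 stood at -0.53 and the metallothionein LEMT1 at 0.29. With the block 6 redox genes fell and 1 rose.

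Of 14 transport genes ST2, a sulfate transporter, fell by 0.75 (SE 0.20, adjusted p = 0.0412), while the proton pump LHA2 stood at -0.07 and the phosphate transporter PT1 at -0.28, and with the block 3 fell. Of 12 translation genes only eIF-5A1 passed. Its paralogue eIF-5A4 stood at 0.11 and the ribosomal protein RPL3 at 0.33, and with the block 2 rose and 1 fell. Of 13 genes of proteolysis and ubiquitin 2 fell, MCA1, a metacaspase, by 0.89 (SE 0.11, adjusted p = 0.00474) and the subtilase sbt4a by 0.62 (SE 0.13, adjusted p = 0.0194). VPE5 stood at 0.06 and LOC543810 at 0.22. With the block 1 gene of this group rose and 2 fell. No gene passed among 9 phenylpropanoid, 2 MADS and 2 terpene genes in the fit of all 8 arrays without the block, where THT7-1 stood at 0.32, hqt at -0.41 (adjusted p = 0.0535) and TDR4 at -0.08. With the block 2 phenylpropanoid genes passed, hqt among them (adjusted p = 0.0315). hqt passed without the block as well under 5 other settings, array weights, an intensity trend, median centring and either filter on dim probe sets, with adjusted p from 0.0357 to 0.0423.

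Leaving out single arrays removed calls in these small groups, as it did over all probe sets. Only 1 array then remains in a group, so a lost call is not shown to be a trait of the array left out. Without the 6 h array of repeat 1 no gene passed in the defence, heat shock, redox and transport groups. P69A also lost its call without the 12 h array of repeat 1, GLUII and Hsp90-1 lost theirs without the 6 h array of repeat 2 and 1 of the 12 h arrays as well, APX2 and sbt4a without any 1 water array, and ST2, APX1 and GPXle-2 without 6 or 7 of the 8 arrays, with adjusted p up to 0.175, 0.206 and 0.194. GPXle-2 also lost its call with only the water arrays (adjusted p = 0.0794). MCA1 and eIF-5A1 held without any 1 array.

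**Figure D4:**
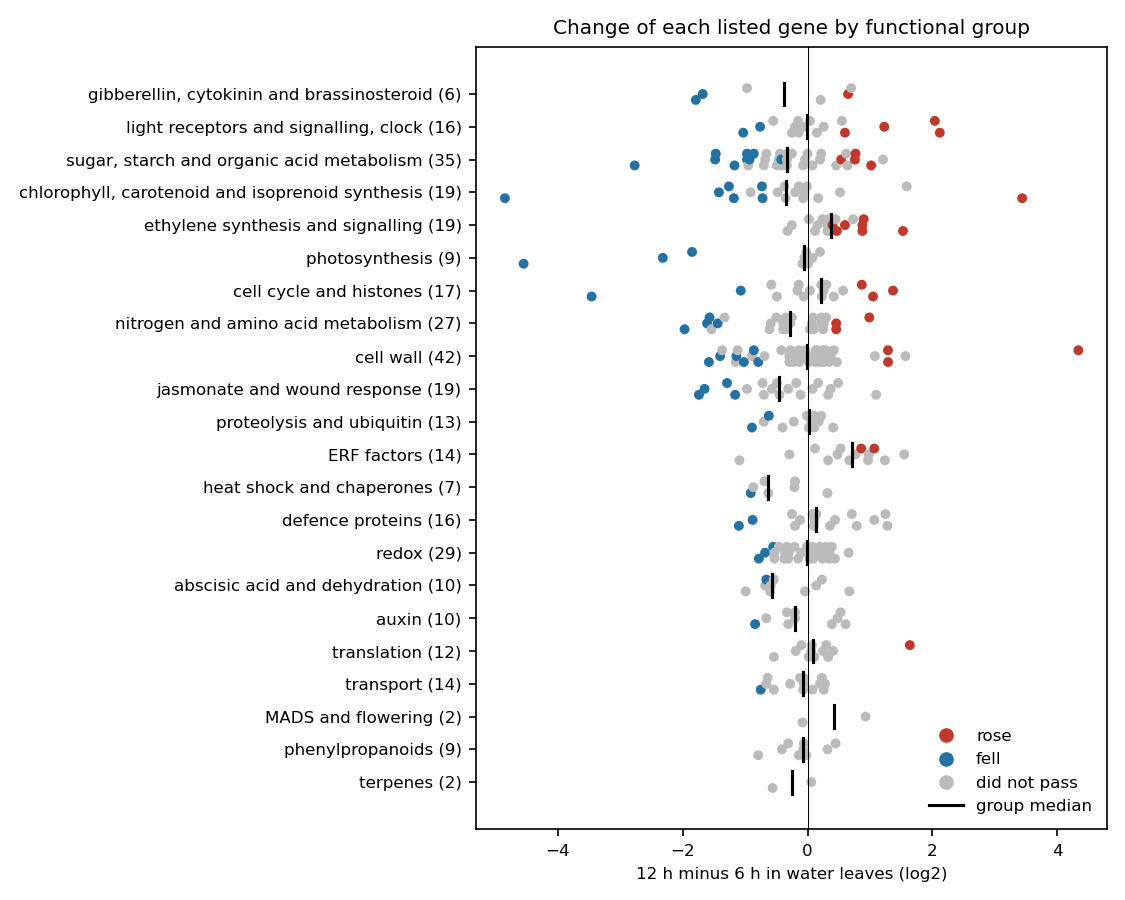
Change from 6 h to 12 h in water leaves (log2) of each listed gene, by functional group, with the number of genes measured in brackets and groups ordered by the share of genes that passed. Red points rose, blue points fell, grey points did not pass, and black bars are group medians. Ethylene genes that passed all lie right of 0 (7 of 19), those of jasmonate (4 of 19, near the 21.4% of all named genes) and photosynthesis (3 of 9) left of it.

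The largest changes of all belonged to probe sets with no gene name. The steepest fall was at 12.92 and 12.97 at 6 h and at 5.13 and 5.36 at 12 h, a change of -7.70 (SE 0.25, 208-fold, adjusted p = 0.000118). A second probe set, which shares the name stem of the first, fell by 7.59 (SE 0.27). The steepest rise was at 4.82 and 4.41 and then at 9.99 and 11.08, a rise of 5.92 (SE 0.51, 60.5-fold, adjusted p = 0.00155), and a second probe set with its name stem rose by 5.59 (SE 0.59). Both pairs may each read 1 transcript. Of the 7651 unnamed probe sets 1711 passed (22.4%), 913 upward (11.9%) and 798 downward (10.4%). With the block 2871 of them passed, 1569 upward and 1302 downward.

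The repeats gave similar changes. Across 8404 probe sets the change in repeat 1 and the change in repeat 2, which share no array, correlated at 0.845 (Pearson, probe sets are not independent), and 80% had the same sign. Among the 1867 called probe sets the changes of the 2 repeats differed by a median of 0.21, and by more than 1 in 59. Over all 8404 probe sets the median was 0.2, with 279 above 1, so this spread is not a trait of the called ones. Among the 147 called genes they differed by more than 1 in 5, Psy1 and LePCL1 among them. Arrays of the same harvest differed between repeats by a median of 0.16 at 6 h and 0.19 at 12 h in absolute terms, against a median absolute change of 0.325 between the harvests.

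The NPA leaves gave a second set of arrays for the same interval, from plants of the same repeats. There 2183 probe sets passed (26%), 1195 upward (14.2%) and 988 downward (11.8%). Of the 688 named genes 179 passed there (26%), 77 upward (11.2%) and 102 downward (14.8%). Of the 981 that rose in water leaves 565 rose in NPA leaves too, and of the 886 that fell 593 fell. These shared calls are 62% of the calls in water and 53% of those in NPA leaves. Opposite calls were 2 among the risen and 5 among the fallen. In direction alone 95.9% of the risen and 92.3% of the fallen probe sets moved the same way under NPA. Over all 8404 probe sets 6237 did so. Across probe sets the changes in water and NPA leaves, which share repeats but no array, correlated at 0.783. Calls in water and NPA leaves use the same estimate of spread for each probe set, so they are not independent. The 15 largest falls of named genes all fell in NPA leaves too, CIP1 by 5.40, ZEP by 4.28 and CAB5 by 5.32, and 13 of the 15 largest rises rose, TBG3 by 4.46 and Psy1 by 3.19. The exceptions were exp9 at 0.98 (adjusted p = 0.0539) and LOC543857 at 0.87 (0.0996).

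A test of the difference between the time changes in NPA and water leaves found no probe set past the threshold in limma, with or without the block (0% of 8404). Before adjustment 1123 had p under 0.05, and 1864 with the block, where chance gives 420. With 2 arrays per group, the lack of calls does not show that the changes were equal. Of the genes under the naming rule that passed in water leaves, the 4 with the smallest p of this difference were PDS, krp2, PTI4 and opr2. PDS changed by -0.73 in water and 0.15 in NPA leaves (difference 0.88, SE 0.18, adjusted p = 0.185). krp2 changed by 1.05 and 0.14 (difference -0.91, SE 0.18, adjusted p = 0.185), and PTI4 by 1.07 and 0.20 (difference -0.87, SE 0.20, adjusted p = 0.191). opr2 changed by -1.16 and 0.64 (difference 1.81, SE 0.45, adjusted p = 0.2). Of all 688 named genes 528 moved the same way in water and NPA leaves. Of the 147 genes called in water leaves 139 did so, and 95 passed in NPA leaves too. None of these changes was therefore shown to be particular to water leaves.

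**Figure D5:**
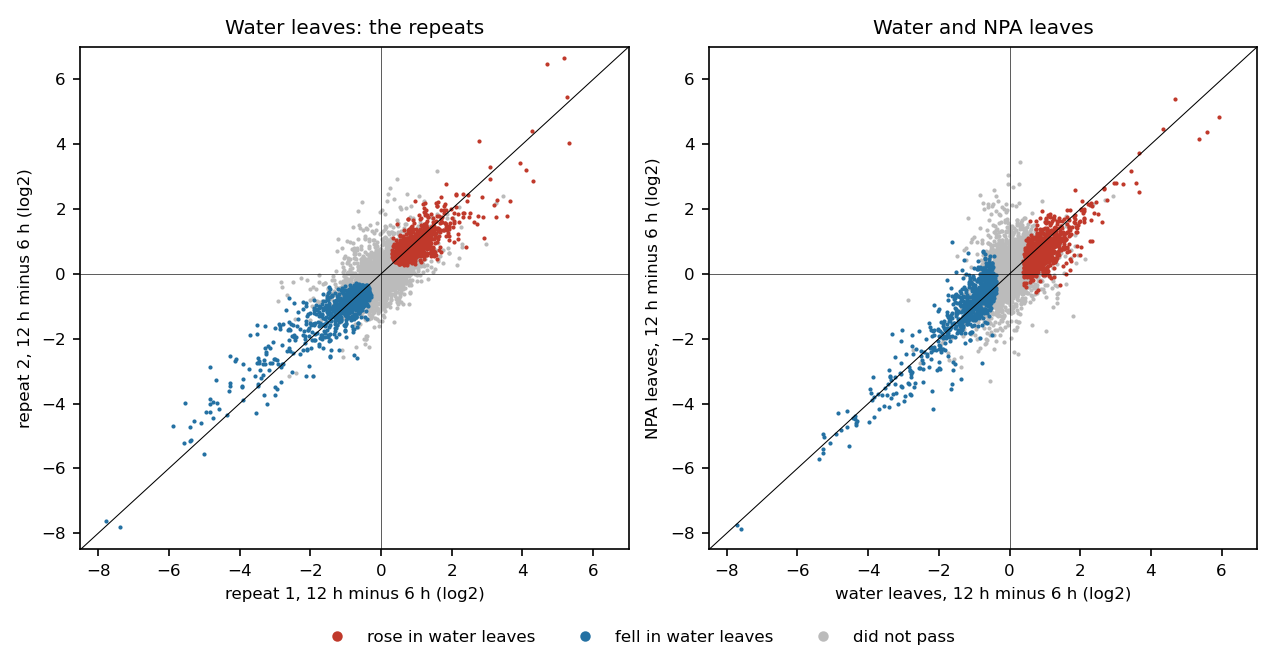
Change from 6 h to 12 h (log2) of 8404 probe sets, in repeat 2 against repeat 1 of the water leaves (left) and in NPA leaves against water leaves (right), coloured by the call in water leaves. The diagonal marks equal change, and the points correlate at 0.845 on the left and 0.783 on the right.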

How the data were processed

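RNA of leaf pools was labelled and hybridized to Affymetrix Tomato Genome arrays, 1 array per pool. The deposited table holds log2 expression values which the authors made with RMA, per the submitters' processing notes. The sources used here do not give the version of RMA or any filter. The log2 scale was taken from RMA and from the range of values, 2.68 to 14.6. Of 8488 probe sets 84 controls (AFFX, RPTR) were left out. Gene symbols came from the platform annotation, and 676 of the 688 genes matched, by identifier, an entry of RefSeq's table for SLM_r2.1. That table and the array name no common build, so no coordinates are given. A LOC name was the only one for 151 genes. Several probe sets existed for 49 genes, which in 6 of them differed in call and in none had opposite calls.

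limma 3.58.1 (R 4.3.3) was fitted with 1 mean for each of the 4 groups, using lmFit and eBayes, which left 4 residual degrees of freedom and added 2.55 from a prior with SD 0.163, and p-values were adjusted by Benjamini-Hochberg over 8404 probe sets. The repeat number was added as a block in a further fit. The design text says that the whole set of experiments was repeated, and the deviations of arrays with the same number correlated at 0.316 to 0.596 in the 6 pairs of groups. For water leaves the result with the block is printed where it alters a call of a named gene, or moves the count of a gene group more than 1.5 times. The spread behind every p-value is that between leaf pools, moderated by the prior taken over all probe sets. In the fit with the block it is the spread left after the difference between repeats is removed.

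The samples and the 22 gene lists were chosen with earlier results of these data known, and list members were assigned by symbol and synonym, so the lists give counts and medians and no test. Named genes were the 15 largest rises and falls, up to 6 called and 2 uncalled members per list, and 2 unnamed probe sets per direction. For all but the uncalled members, water arrays that did not overlap between harvests were a condition of the choice. Genes outside this rule are said to be so and were chosen after their values were seen. On simulated data for 12 h against 6 h in water (8404 probe sets, 200 changed, 5 runs) limma recovered 5.6% of changes of 0.5, 49.6% of 1, 88.8% of 2 and 96% of 3 on the log2 scale, with 5.2 false calls per run. The simulation changed far fewer probe sets than the 1867 that passed in the data. It also drew the arrays independently, whereas arrays of the same repeat deviated together. These rates therefore cannot be carried over to the data. Alternatives were other scalings, filters on dim probe sets, variance models, array weights, thresholds, only the 4 water arrays, the block, and leaving out each array, where the lone array that remains in a group is taken to vary as the other groups do. Figures were drawn with matplotlib 3.10.9.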

Additional observations from a re-analysis of the deposited data

Results flagged for a closer look

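Among genes under the naming rule, 6 had a change from 6 h to 12 h of one sign in both water repeats and of the other sign in both NPA repeats. Of all 688 named genes 528 had the same sign of mean change in water and NPA leaves. The share with opposite signs in both repeats was not worked out over all named genes. The count of 6 is therefore not shown to be high or low. In none of them did the difference of the changes pass in limma. PDS stood at -0.73 in water and 0.15 in NPA leaves (adjusted p = 0.185), HDS at -0.35 and 0.50 (0.191), and opr2 at -1.16 and 0.64 (0.2). LOC543517 stood at -0.20 and 0.38 (0.38), CHI17 at -0.20 and 0.30 (0.521), and LHA2 at -0.07 and 0.17 (0.56). Of these genes PDS and opr2 fell in water leaves, and the others did not pass there.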

How the results depend on the processing

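The count of 1867 changed probe sets (981 rises, 886 falls) stayed within 1.5 times with only the 4 water arrays, both scalings, the dimmest 20% dropped, an intensity trend, robust estimation and array weights (1520 to 2210), although median centring gave 863 rises and 981 falls. With the replicate block it was 3144 (1697 rises, 1447 falls), at or above the median level 1157 (631 and 526), at an adjusted p under 0.01 it was 533 (258 and 275), and at a fold of at least 2 it was 702 (330 and 372). Fewer probe sets tested or stricter limits lower the last 3 by construction. Leaving out each array gave 356 to 1740 in all, 155 to 900 rises and 201 to 840 falls. No call changed direction under any of these settings. Probe sets whose change differs between NPA and water leaves numbered 0 in limma (1123 at an unadjusted p under 0.05), 2 with quantile normalization, 1 at or above the median level, 1 with the dimmest 20% dropped and 1 with an intensity trend, with no value possible from only the 4 water arrays, and 0 to 1 on leaving out each array, the 1 without the NPA 6 h array of repeat 1. The cause was not tested. Of 74 named genes that passed, all kept their direction without each array and 24 kept the call throughout. The call was kept by 24 without the water 6 h array of repeat 1, 41 without that of repeat 2, and 45 and 40 without the water 12 h arrays of repeats 1 and 2. It was kept by all 74 with the block, an intensity trend, robust estimation and array weights, and by 66 with only the water arrays. With the dimmest 20% dropped only 62 of the 74 had a value, and at or above the median level only 49. All of those kept the call, and the dimmer genes were not tested under these filters. The block ended no call, and only the genes said above to pass with it were gained among those named. With an intensity trend PSBR, GS2, OPR1, TLRP, HSC80, LEMT1 and hqt also passed, and GS2 with quantile normalization.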
